A study of Mus musculus with 25 samples.

Results

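The antigen presentation genes followed in mouse myocardium were the class II genes H2-Aa, H2-Ab1, H2-Eb1 and Cd74 and the class I genes H2-K1, H2-D1, B2m, Tap1, Psmb8 and Psmb9. They were listed by name and are 10 of the 35922 genes with a listed transcript. All 10 passed the filter on low values that left 11974 genes for testing. Polyadenylated mRNA was sequenced from 25 male mice in 5 groups of 5. On the control diet (CNTL) were WT mice and GPx4+/- mice, on the HFHS diet again WT mice and GPx4+/- mice, and the last group was WT HFHS + Carnosine. GPx4+/- mice are heterozygous for a disruption of Gpx4, the glutathione peroxidase that reduces lipid hydroperoxides, in every cell of the body, and WT mice were littermates on a backcross to C57BL6/J. CNTL is standard chow with 6% of energy as fat, and HFHS is a high fat, high sucrose diet with 35.5% of energy as fat. Both were fed for 16 weeks from an age of 8 to 10 weeks, and carnosine, a dipeptide that traps reactive aldehydes, was dissolved in the water bottles at 80 mM, starting in week 7. Mice were killed fasted, after dextrose or saline, and the labels do not say which mouse received which, so that any difference from the injection lies within the groups or cannot be told apart from them. A group of GPx4+/- HFHS mice with carnosine was not analysed here.

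Class II molecules present peptides from the outside of the cell to CD4 T cells. Their alpha chain (H2-Aa) and beta chains (H2-Ab1 and H2-Eb1) assemble in the endoplasmic reticulum with the invariant chain, Cd74, which guards the groove until peptide is loaded, and in healthy tissue they are made mainly by macrophages, dendritic cells and B cells. Class I molecules present peptides from inside the cell to CD8 T cells and are made by nearly all nucleated cells: the heavy chains H2-K1 and H2-D1 pair with the light chain B2m, Tap1 is a subunit of the transporter that brings peptides into the endoplasmic reticulum, and Psmb8 and Psmb9 are catalytic subunits that replace the standard ones in the immunoproteasome. Both sets respond to interferon gamma, the class II set through the coactivator Ciita.

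In all, 8 of the 10 members lie in the H2 locus of chromosome 17 (GRCm38). Within it H2-K1 (ENSMUSG00000061232.16) occupies chr17:33996017-34000347 on the minus strand, Psmb9 (ENSMUSG00000096727.3) chr17:34181987-34187764 on the minus strand, Tap1 (ENSMUSG00000037321.17) chr17:34187553-34197225 on the plus strand and Psmb8 (ENSMUSG00000024338.15) chr17:34197721-34201454 on the plus strand. The class II chains follow, with H2-Ab1 (ENSMUSG00000073421.6) at chr17:34257689-34269419 on the plus strand, H2-Aa (ENSMUSG00000036594.15) at chr17:34282744-34287823 on the minus strand and H2-Eb1 (ENSMUSG00000060586.11) at chr17:34305867-34316674 on the plus strand. H2-D1 (ENSMUSG00000073411.11) is at chr17:35262730-35267499 on the plus strand. B2m (ENSMUSG00000060802.8) lies outside the locus at chr2:122147686-122153083 on the plus strand, as does Cd74 (ENSMUSG00000024610.15).

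Promoter windows from RefSeq (GRCm38.p6) were used for 7 of the 10 members, all but H2-Ab1, Cd74 and B2m. The 250 bases before the start of the class II chains H2-Aa and H2-Eb1 are shown because these genes rose and fell together from mouse to mouse, and capitals mark ATTGG or its reverse complement CCAAT, the core of the box bound by the factor NF-Y that belongs to class II promoters. H2-Aa is read from chr17:34287824-34288073 on the minus strand and H2-Eb1 from chr17:34305617-34305866 on the plus strand.
H2-Aa: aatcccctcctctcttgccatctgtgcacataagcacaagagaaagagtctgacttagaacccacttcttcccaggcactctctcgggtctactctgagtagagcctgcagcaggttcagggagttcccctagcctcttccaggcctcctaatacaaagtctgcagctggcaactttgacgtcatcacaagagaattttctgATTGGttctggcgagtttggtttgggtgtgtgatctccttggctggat
H2-Eb1: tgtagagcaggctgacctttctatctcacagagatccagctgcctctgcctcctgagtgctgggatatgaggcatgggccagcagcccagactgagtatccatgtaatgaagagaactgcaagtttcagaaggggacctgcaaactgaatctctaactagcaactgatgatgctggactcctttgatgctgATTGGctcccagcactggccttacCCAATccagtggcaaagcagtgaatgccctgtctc
The longest words that both windows share are 8 bases long, CTGATTGG on the same strand and GCAGCTGG on opposite strands. Whether unrelated windows share words of this length was not tested. CTGATTGG, which contains the ATTGG core, begins 51 bases before the start of H2-Aa and 62 bases before that of H2-Eb1.

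Windows of 30 bases around the same core, read in the direction ATTGG, are shown for 3 class I genes, at chr17:34000347-34000376 on the minus strand for H2-K1, chr17:35263005-35263034 on the plus strand for H2-D1 and chr17:34187321-34187350 on the minus strand for Tap1. H2-K1 and H2-D1 have 2 matches each, of which the one farther from the start is shown.
H2-K1: agctcttacccccATTGGgtggcgcgatca
H2-D1: aggtctcactatcATTGGgtggcgagattc
Tap1: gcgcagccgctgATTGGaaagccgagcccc
The Tap1 site lies in the 225 bases between the RefSeq starts of Tap1 (34187556) and Psmb9 (34187330), which are transcribed away from each other, so that it counts for both genes. The gene spans given above, in contrast, overlap there. On either strand, CCAAT was found in the 250 bases before the start of 6 of the 7 members, the exception being Psmb8. It was in 33.8% of the 32851 promoter windows searched, which cover 27025 genes and not every chromosome. CTGATTGG, which was picked because H2-Aa and H2-Eb1 share it, was also in H2-D1, at the match not shown, and in the site common to Tap1 and Psmb9. The word is in 3.83% of the searched windows, and each such match is also a CCAAT match. The interferon-type repeat GAANNGAAA was in H2-K1 and H2-D1 (6.31% of the searched windows). The palindrome TTCNNNGAA, of the kind bound by STAT factors, was in Psmb8 (7.02% of the searched windows). These are matches of letters and were not tested as binding sites.

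Levels are given as scaled TPM, transcripts per 1000000 summed over the transcripts of a gene and brought to a common scale across libraries by a median-ratio factor (0.865 to 1.158), which allows levels of different genes to be compared per length. Over the 25 mice the order was B2m with a mean of 209, H2-K1 with 116, H2-D1 with 101, Cd74 with 76.9, H2-Aa with 34.3, H2-Eb1 with 32.7, H2-Ab1 with 23.3, Psmb8 with 13.1, Psmb9 with 6.05 and Tap1 with 4.87, beside a median of 9.04 over the genes tested. Each gene was above the next in every mouse, except that H2-Aa exceeded H2-Eb1 in 18 of 25 mice and Psmb9 exceeded Tap1 in 21 of 25. Thus the light chain of class I was the most abundant member, and the transporter and the immunoproteasome subunits lay far below the chains they serve. TPM carries no read depth, so no counting error can be attached to these levels.

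**Figure D1:**
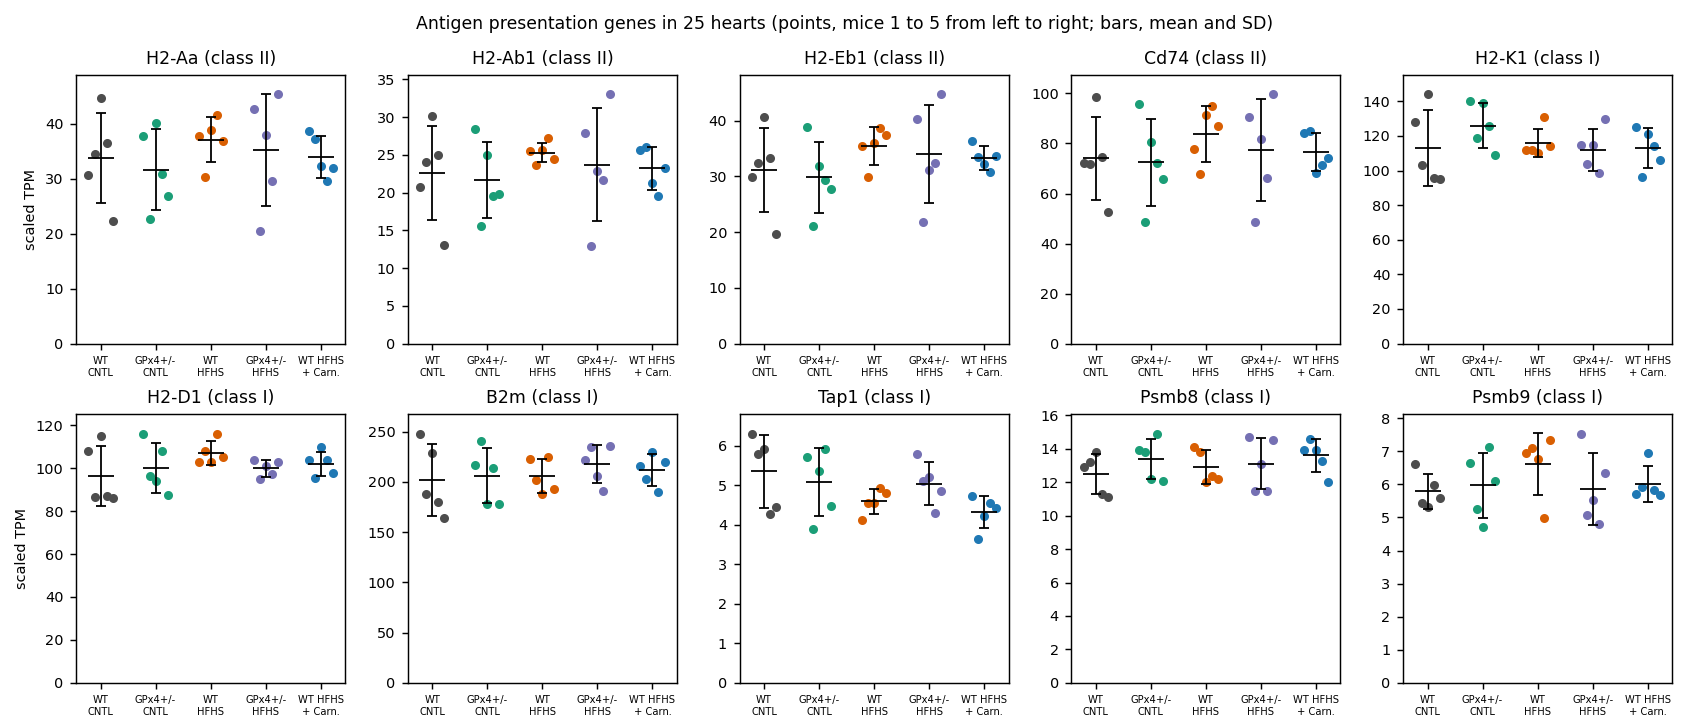
Scaled TPM (vertical axes, linear from 0) of each member in each of the 25 mice, by group. Points are mice and bars are the mean and SD of 5 mice; the groups of each gene overlap, and the 4 class II genes spread more widely than the 6 class I genes, with Cd74 between 48.7 and 99.6 and B2m between 164 and 248.

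The tissue was heart, as labelled: the summed markers of ventricular cardiomyocytes (8 genes, all at a mean of at least 1) were 41900 to 52400 scaled TPM. Gpx4 mRNA, which checks the genotype labels, was 250 to 382 in the 10 GPx4+/- mice and 590 to 777 in the 15 WT mice. The labels' extraction protocol names left ventricular tissue, but atrial Myl7 was above 100 in 5 mice (up to 1710 in WT CNTL mouse 3) and liver Alb above 10 in 3 mice (736 in GPx4+/- CNTL mouse 2, with 40.8 and 23.0 in GPx4+/- HFHS mice 1 and 3), so these 5 and these 3 mice were also left out in turn. Immune cell markers were present but low: the macrophage markers (10 of 12 at a mean of at least 1) summed to 167 to 321, the dendritic cell markers (3 of 10) to 8.90 to 11.9, the B cell markers (2 of 10) to 7.32 to 13.7 and those of T and NK cells, which are not typical makers of class II in mice, (0 of 10) to 0.563 to 3.16. In such bulk tissue fewer cells of a type and less RNA per cell cannot be told apart.

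The class II group means lay closer together than the mice of most groups did. Cd74, the invariant chain and the most abundant of the 4, was 72.1, 71.8, 98.7, 74.7 and 52.8 in WT CNTL mice 1 to 5 and 95.6, 48.7, 80.5, 72.2 and 65.8 in GPx4+/- CNTL mice. On the HFHS diet it was 77.6, 67.8, 91.4, 95.1 and 86.9 in WT, 90.7, 48.7, 81.8, 66.1 and 99.6 in GPx4+/- and 84.3, 85.0, 68.0, 71.5 and 74.3 with carnosine. Mouse 5 of WT CNTL and mouse 2 of both GPx4+/- groups stood low, each at or below 52.8, whereas no mouse of the 2 WT HFHS groups was below 67.8. The group means were 74.0 ± 16.4 (SD, n = 5), 72.5 ± 17.4, 83.8 ± 11.1, 77.4 ± 20.2 and 76.6 ± 7.68 in the same order, and all 5 groups overlapped.

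H2-Aa, the alpha chain of the I-A molecule, was 30.7, 34.5, 44.7, 36.5 and 22.3 in WT CNTL and 37.7, 22.6, 40.2, 30.8 and 26.8 in GPx4+/- CNTL. Under HFHS it was 37.7, 30.3, 38.8, 41.5 and 36.9 in WT, 42.7, 20.4, 37.9, 29.5 and 45.3 in GPx4+/- and 38.6, 37.2, 32.3, 29.5 and 32.0 with carnosine. The same 3 mice were the lowest of their groups, and mouse 5 of GPx4+/- HFHS was the highest of all 25. Group means lay between 31.6 ± 7.37 (GPx4+/- CNTL) and 37.1 ± 4.15 (WT HFHS).

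H2-Ab1, the beta chain that pairs with H2-Aa, was 20.8, 24.0, 30.1, 25.0 and 13.1 in WT CNTL and 28.4, 15.6, 25.0, 19.6 and 19.8 in GPx4+/- CNTL. In the HFHS groups the values were 25.5, 23.7, 25.6, 27.2 and 24.5 (WT), 27.9, 12.9, 22.9, 21.7 and 33.0 (GPx4+/-) and 25.7, 26.1, 21.3, 19.6 and 23.2 (carnosine). WT HFHS was the tightest group, with all 5 mice between 23.7 and 27.2, inside the range of every other group but that of carnosine. Means ran from 21.7 ± 5.02 (GPx4+/- CNTL) to 25.3 ± 1.30 (WT HFHS).

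H2-Eb1, the beta chain of the I-E molecule, was 29.8, 32.4, 40.6, 33.3 and 19.7 in WT CNTL and 38.8, 21.1, 31.8, 29.4 and 27.7 in GPx4+/- CNTL. It was 35.5, 29.9, 36.0, 38.7 and 37.4 in WT HFHS, 40.3, 21.8, 31.2, 32.4 and 44.7 in GPx4+/- HFHS and 36.4, 33.4, 32.2, 30.8 and 33.7 with carnosine. Mice of the C57BL6/J background carry a defect in the partner alpha chain and make no I-E protein, and the alpha chain transcript, annotated as the pseudogene H2-Ea-ps, was listed at 0 in all 25 mice. The beta chain, summed over all its transcripts, had group means of 29.8 ± 6.43 to 35.5 ± 3.37, but 12.1% of this was in protein-coding transcripts, against 99.3% for H2-Aa.

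The 4 class II genes rose and fell together. Across the 25 mice the Pearson correlation of log2 levels was 0.93 to 0.96 over their 6 pairs, and 0.93 to 0.96 after each group mean was subtracted. Without the 2 mice farthest from the median, WT CNTL mouse 5 and GPx4+/- HFHS mouse 2, it was 0.90 to 0.93 over 23 mice. All points of a mouse come from 1 library. Taken as the mean of the 4 genes on the log scale, relative to the mean of all mice, class II stood at 0.642 in WT CNTL mouse 5, 0.669 in GPx4+/- CNTL mouse 2 and 0.629 in GPx4+/- HFHS mouse 2, and each of these was the lowest of its group for all 4 genes. At the other end were WT CNTL mouse 3 at 1.30 and GPx4+/- HFHS mouse 5 at 1.37, the latter the highest of all mice for 4 of 4 genes.

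**Figure D2:**
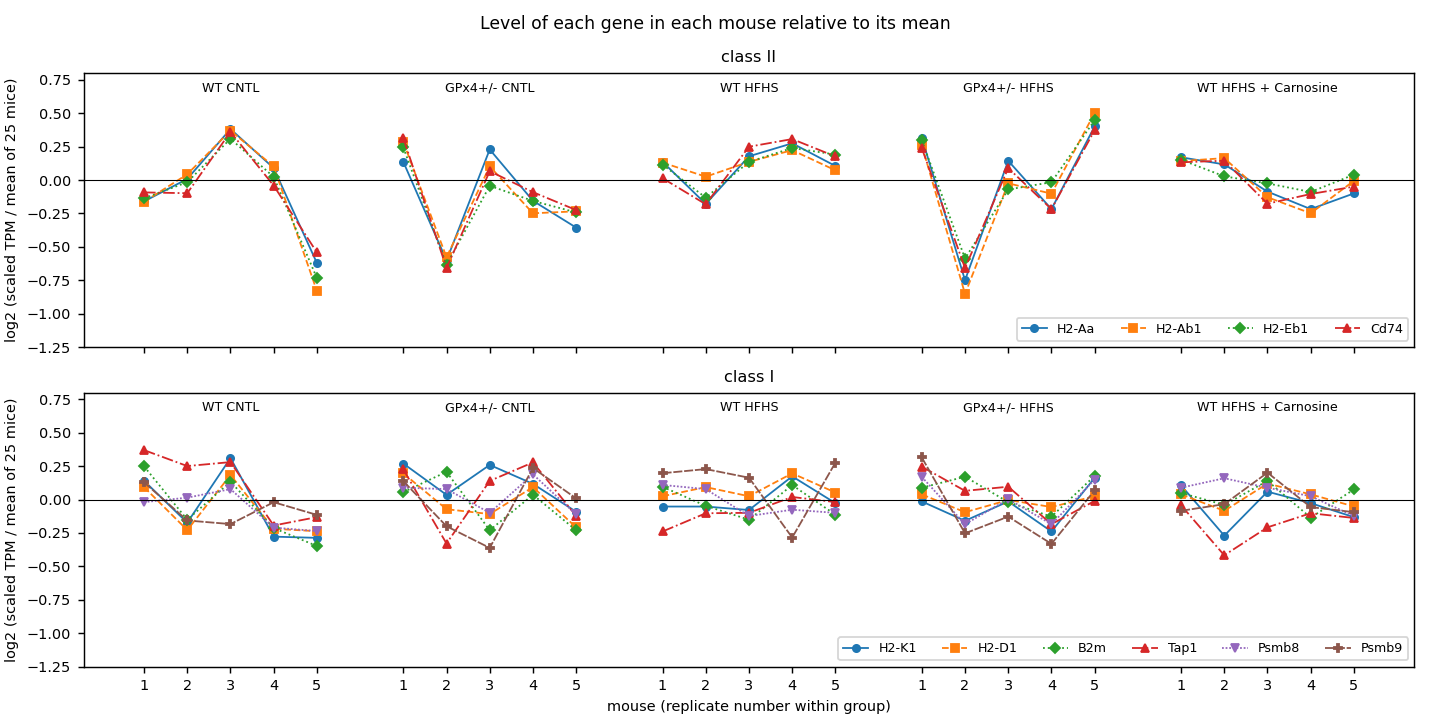
Log2 level of each gene in each mouse relative to the gene's mean over 25 mice (vertical axis), with mice 1 to 5 of each group along the horizontal axis, class II above and class I below. The 4 class II lines move as one, with low points at mouse 5 of WT CNTL and mouse 2 of both GPx4+/- groups, whereas the 6 class I lines stay closer to 0 and cross each other; lines only join the mice of a group.

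The spread of class II was wider in some groups than in others. The coefficient of variation of the 4 genes was 21.6% to 31.6% in WT CNTL, GPx4+/- CNTL and GPx4+/- HFHS, and 5.15% to 13.2% in WT HFHS and WT HFHS + Carnosine. The highest mouse stood above the lowest by a ratio of 2.02, 1.81 and 2.18 in the first 3 groups, which fell to 1.40, 1.42 and 1.48 without the lowest mouse of each. The ratio was 1.30 in WT HFHS and 1.24 with carnosine, and 1.12 and 1.19 without the lowest mouse. The difference in spread was not tested. Within groups, the SD of log2 levels was 0.291 to 0.342 for the class II genes, above 88.4% to 92.1% of all tested genes, and 0.128 to 0.189 for the class I genes (percentiles 40.2 to 68.3), beside a median of 0.145.

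Markers of immune cells were set beside the low and the high mice. The T and NK cell list, whose 10 genes (among them Cd3d, Cd3e and Cd4) each had a mean below 1 scaled TPM, was the lowest of all 25 mice in WT CNTL mouse 5 (sum 0.563), the second lowest in GPx4+/- CNTL mouse 2 (1.32), the fifth lowest in GPx4+/- HFHS mouse 2 (1.58) and the highest in GPx4+/- HFHS mouse 5 (3.16). In WT CNTL mouse 3, the other mouse high in class II, it was 1.90, near the median of the 25 mice. Its log2 sum had r = 0.77 with the class II level over the 25 mice (Spearman's rho 0.70), 0.82 after group means were subtracted, and 0.66 over 23 mice without the 2 mice farthest from its median. The macrophage list followed less closely (r = 0.36): its sum was 167 in WT CNTL mouse 5, the lowest of all, but 240 in GPx4+/- CNTL mouse 2, near the median, and 267 in GPx4+/- HFHS mouse 2, above it. For the general leukocyte list r was 0.53, for the dendritic cell list 0.34, for the B cell list 0.35 and for the endothelial list -0.39. The endothelial sum was mostly Cd36 and Fabp4 (means 1090 and 631 scaled TPM), whose own r was -0.22 and -0.53. The less abundant genes of that list had 0.28 (Pecam1), 0.25 (Emcn), 0.14 (Tek), 0.06 (Kdr), -0.12 (Cdh5) and -0.15 (Tie1). The part of these cell types in the class II level was not tested.

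By likeness, measured as the correlation of log2 levels over the 25 mice, the genes outside the 10 that came closest to the class II mean were H2-DMa (r = 0.87, mean 3.31 scaled TPM), Nrf1 (0.72), Rgma (0.72), Srebf2 (0.71) and H2-DMb1 (0.70). H2-DMa and H2-DMb1 encode the chains of the chaperone that exchanges the invariant chain fragment for peptide. For the class I mean they were H2-Q6 (0.84), H2-Q4 (0.81), H2-Q7 (0.77), Mtcp1 (0.66) and H2-T22 (0.66), where the H2 genes are further class I heavy chains whose near-identical sequences leave the division of reads between them uncertain. These orders are descriptions, and genes next to each other in them were not tested for a difference.

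The class I genes varied less and less in step. H2-K1, a classical heavy chain, was 128, 103, 144, 95.8 and 95.2 in WT CNTL and 140, 119, 139, 126 and 109 in GPx4+/- CNTL. It was 112, 112, 110, 131 and 114 in WT HFHS, 115, 104, 115, 98.4 and 130 in GPx4+/- HFHS and 125, 96.3, 121, 114 and 106 with carnosine. WT CNTL reached both the lowest and the highest value of all mice, and in WT HFHS mouse 4 stood apart at 131 with the others at 110 to 114.

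H2-D1, the other classical heavy chain, was 108, 86.4, 115, 87.0 and 85.9 in WT CNTL and 116, 96.3, 93.9, 108 and 87.6 in GPx4+/- CNTL. The HFHS values were 103, 108, 103, 116 and 105 in WT, 104, 94.8, 101, 97.4 and 103 in GPx4+/- and 104, 95.5, 110, 104 and 97.7 with carnosine. WT CNTL fell into 2 mice above 100 and 3 near 86, and every WT HFHS mouse was above the WT CNTL median while the ranges overlapped.

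B2m, the light chain, was 248, 188, 229, 180 and 164 in WT CNTL and 217, 241, 178, 214 and 178 in GPx4+/- CNTL. It was 223, 202, 188, 225 and 193 in WT HFHS, 222, 235, 206, 191 and 236 in GPx4+/- HFHS and 216, 203, 230, 190 and 220 with carnosine. Again WT CNTL spanned the whole range, from 164 to 248, and the group means stayed within 202 ± 35.4 and 218 ± 19.3.

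Tap1, the transporter subunit, was 6.30, 5.80, 5.92, 4.26 and 4.45 in WT CNTL and 5.70, 3.88, 5.37, 5.91 and 4.48 in GPx4+/- CNTL. In HFHS mice it was 4.13, 4.54, 4.55, 4.94 and 4.81 (WT), 5.78, 5.10, 5.21, 4.29 and 4.84 (GPx4+/-) and 4.73, 3.65, 4.22, 4.54 and 4.43 (carnosine). No WT HFHS or carnosine mouse reached 5, whereas 3 WT CNTL mice were at 5.80 or more, and the WT CNTL range overlapped that of WT HFHS between 4.26 and 4.94 and that of the carnosine group between 4.26 and 4.73.

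Psmb8, the immunoproteasome subunit also called beta5i, was 12.9, 13.2, 13.8, 11.3 and 11.1 in WT CNTL and 13.9, 13.8, 12.2, 14.9 and 12.1 in GPx4+/- CNTL. It was 14.1, 13.8, 12.0, 12.4 and 12.2 in WT HFHS, 14.7, 11.5, 13.1, 11.5 and 14.5 in GPx4+/- HFHS and 13.9, 14.6, 13.9, 13.3 and 12.0 with carnosine. It was among the steadiest members, its highest mouse at 1.34 times its lowest.

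Psmb9, or beta1i, was 6.62, 5.43, 5.33, 5.97 and 5.59 in WT CNTL and 6.66, 5.27, 4.71, 7.13 and 6.09 in GPx4+/- CNTL. Under HFHS it was 6.94, 7.09, 6.78, 4.97 and 7.33 in WT, 7.53, 5.08, 5.54, 4.81 and 6.35 in GPx4+/- and 5.71, 5.91, 6.96, 5.82 and 5.67 with carnosine. In WT HFHS 4 of 5 mice were above every WT CNTL mouse, and mouse 4, at 4.97, was below them all.

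Among the 15 pairs of class I genes the correlation over the 25 mice was 0.06 to 0.72 with a median of 0.45, highest between H2-K1 and H2-D1. Between the classes the 24 pairs gave 0.11 to 0.54 with a median of 0.33. WT CNTL mouse 5 was low in both classes, with a class I level of 0.864, and was the lowest of all 25 mice for 4 of the 6 class I genes.

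**Figure D3:**
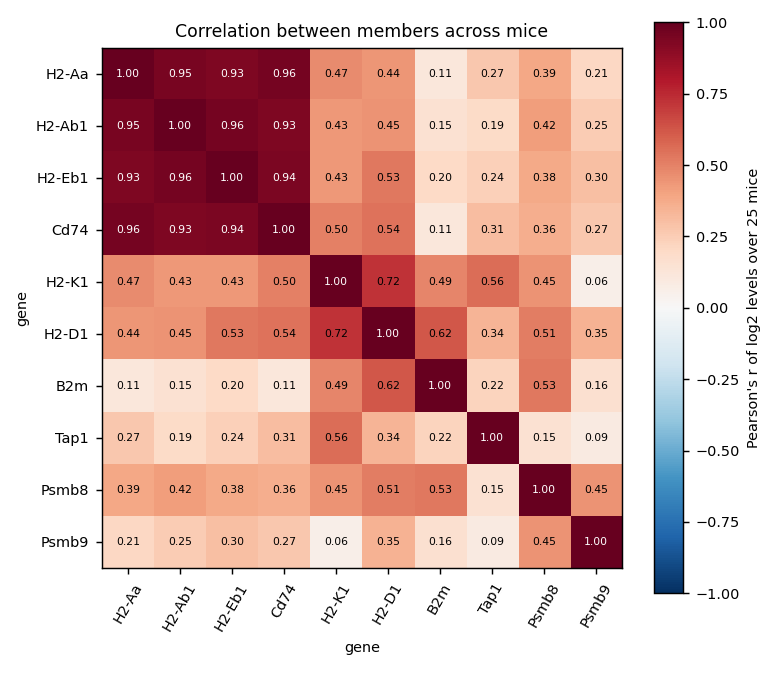
Pearson's r of log2 levels over 25 mice for each pair of the 10 members, as colour and number, both axes listing the genes. The upper left block of 4 class II genes is at 0.93 to 0.96, the block of 6 class I genes at 0.06 to 0.72 and the block between them at 0.11 to 0.54.

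The comparison of HFHS with CNTL asks whether the diet moved antigen presentation genes. None of the 10 passed the test (limma on log2(scaled TPM + 0.5), Benjamini-Hochberg adjustment over the 11974 genes, adjusted p under 0.05) in WT, in GPx4+/- or over both genotypes, against 1.19%, 3.34% and 8.33% of all tested genes. At an unadjusted p under 0.05 the count was 0 of 10 in each, where 16.5%, 18.4% and 24.5% of all tested genes were. All p-values here are set against the spread among mice within groups. For limma that spread is pooled over the groups of a fit and moderated across genes. Over both genotypes the class II genes were 4 of 4 higher, with log2 fold changes of 0.14 (H2-Aa, SE 0.144), 0.15 (H2-Ab1, 0.153), 0.20 (H2-Eb1, 0.133) and 0.14 (Cd74, 0.136), a median of 0.15 beside -0.002 for all genes. H2-Eb1 had the smallest adjusted p, 0.388, with a 95% interval of the log2 change from -0.08 to 0.47. The upper 95% bounds allow at most a 1.39-fold rise of any class II gene over both genotypes, 1.58-fold in WT and 1.48-fold in GPx4+/-.

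In WT the class II changes were 0.16 for H2-Aa, 0.21 for H2-Ab1, 0.22 for H2-Eb1 and 0.19 for Cd74, and 4 of 5 WT HFHS mice were above the WT CNTL median for each, with no mouse above the whole WT CNTL range. In GPx4+/- they were 0.13, 0.09, 0.18 and 0.08, and became -0.15, -0.12, -0.003 and -0.18 without the 3 mice with Alb above 10. These are the low mouse 2 of GPx4+/- CNTL and mice 1 and 3 of GPx4+/- HFHS, whose class II levels were 1.23 and 1.04. For H2-Ab1 and Cd74 leaving out mouse 2 of GPx4+/- CNTL alone gave -0.02 and -0.05, and leaving out the high mouse 5 of GPx4+/- HFHS gave -0.04 and -0.02. An effect of the diet on class II was therefore not detectable against the spread between mice.

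For class I the changes over both genotypes were smaller: -0.06 for H2-K1 (SE 0.0750), 0.08 for H2-D1 (0.0590), 0.07 for B2m (0.0755), -0.09 for Tap1 (0.0801), 0.00 for Psmb8 (0.0586) and 0.07 for Psmb9 (0.0868). The smallest adjusted p was 0.435, for H2-D1, and the intervals reach from 0.836-fold to 1.19-fold. In WT the smallest adjusted p of any member was 0.351, again for H2-D1, which was 96.4 ± 13.9 on CNTL and 107 ± 5.62 on HFHS. A sum of 11 class I chains of the H2 locus was taken because the division of reads among near copies is uncertain. Being a sum of TPM, it still depends on that division where transcripts differ in length. The sum was 294 ± 50.5 in WT CNTL and 315 ± 13.9 in WT HFHS (two-sided exact permutation test, p = 0.381). In GPx4+/- it was 319 ± 29.5 and 301 ± 20.4 (exact p = 0.325), and H2-K1 and H2-D1 made up 70.5% to 71.4% of it in every group.

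**Figure D4:**
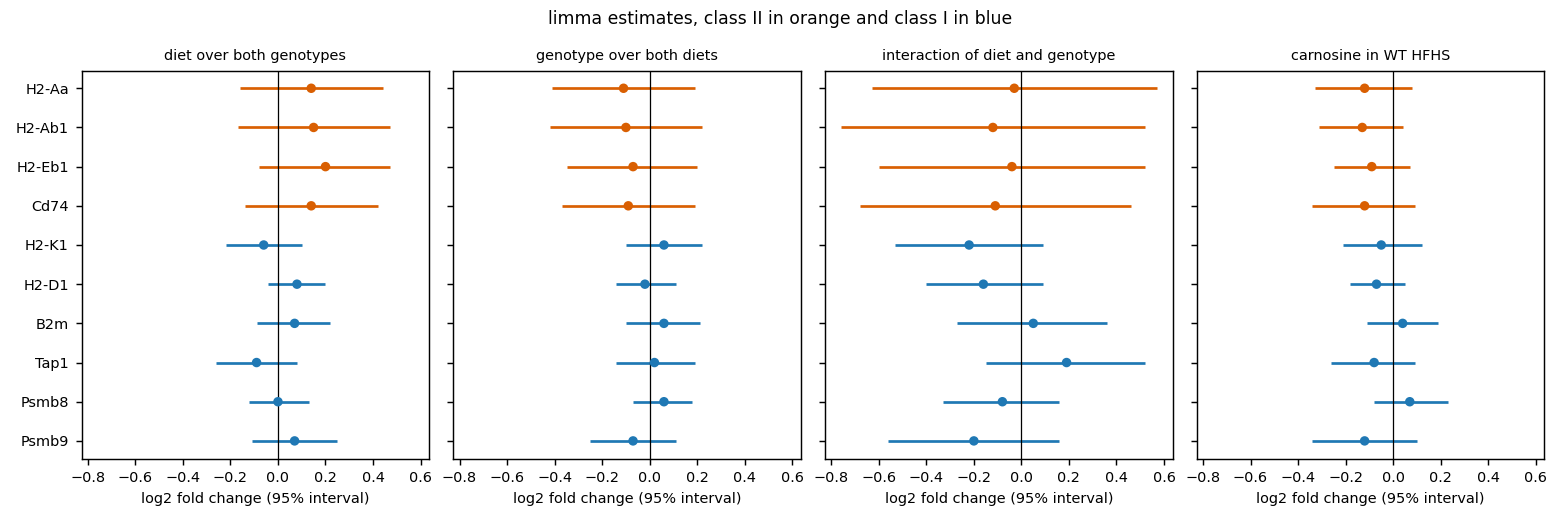
Log2 fold change of each member (horizontal axis, points) with its 95% interval from limma (bars) in the comparisons of diet, genotype, their interaction and carnosine. Every interval crosses 0, and the class II genes have wider intervals than the class I genes.

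GPx4 heterozygosity was compared within each diet and over both. None of the 10 passed the test on CNTL, on HFHS or over both diets, where 0.0501%, 0.0501% and 0.0585% of all tested genes did, and the count at an unadjusted p under 0.05 was 0 of 10 in each, beside 6.29%, 4.56% and 3.92% of all tested genes. All 4 class II genes were lower in GPx4+/- by small amounts, with log2 changes of -0.09 to -0.04 on CNTL and -0.16 to -0.09 on HFHS. For class I the range was -0.07 to 0.17 on CNTL and -0.17 to 0.12 on HFHS. H2-D1 on HFHS came closest to separating: no GPx4+/- mouse was above the WT median and 3 of 5 were below all WT mice, at 100 ± 3.97 against 107 ± 5.62 (exact permutation p = 0.0556, where 0.00794 is the smallest that 5 against 5 can give). This exact p was picked as the smallest of 50 such tests of members, and limma gave a log2 change of -0.09 with an adjusted p of 0.979. The interaction of diet and genotype, which asks whether the diet acted differently in GPx4+/- hearts, was past the threshold in 0 of 10 members and 0% of all tested genes (limma), with 0 of 10 at an unadjusted p under 0.05 beside 7.16% of all tested genes. Its interval was wide, from 0.591-fold to 1.48-fold over the class II genes, and differences within it were not detectable.

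Carnosine was compared in WT HFHS mice only. Again 0 of 10 members passed the limma test and 0% of all tested genes did, with 0 of 10 at an unadjusted p under 0.05 beside 4.20% of all tested genes. The class II genes were all lower with carnosine, by log2 changes of -0.12 (H2-Aa), -0.13 (H2-Ab1), -0.09 (H2-Eb1) and -0.12 (Cd74). For H2-Ab1 the 95% interval was -0.31 to 0.04 with an adjusted p of 0.947 (exact permutation p = 0.183), and 3 of 5 carnosine mice were below all 5 WT HFHS mice. No carnosine mouse was above the WT HFHS median of Cd74, although the ranges overlapped (68.0 to 85.0 and 67.8 to 95.1). Class I changes were -0.12 to 0.07. Of the marker lists, all 7 fibroblast (median log2 change -0.20), all 7 smooth muscle (-0.79) and all 4 valve genes (-1.07) were lower with carnosine and none was called, while the macrophage (0.01), dendritic cell (0.04) and leukocyte (0.04) medians were near 0. Their part in the members' changes was not tested. Over all members the lowest bound was 0.788-fold. The 5 mice of WT HFHS entered this comparison and that of diet in WT, so a WT HFHS mouse that is high moves both, in opposite directions. Over the 50 exact permutation tests of members between pairs of groups, 0 gave an unadjusted p under 0.05.

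Other genes of both routes were taken as lists. Of 12 other class II chains and loading genes 5 passed the filter on low values (H2-DMa, H2-DMb1 and the lysosomal enzymes among them), and 0 of 5 were called in any comparison. With the diet over both genotypes all 5 were higher (median log2 change 0.11), and 1 of 5 had an unadjusted p under 0.05, as did 24.5% of all genes. Of 12 other class I and class I-like chains 11 were tested and 2 rose with the diet over both genotypes, where 8.33% of all tested genes were called in either direction. H2-T24, a non-classical chain, had means of 5.05 (WT CNTL) and 5.67 (GPx4+/- CNTL) then 6.38 (WT HFHS), 6.69 (GPx4+/- HFHS) and 5.65 (with carnosine; log2 change 0.26, SE 0.0726, limma adjusted p = 0.0284). Fcgrt, the chain of the neonatal Fc receptor, which pairs with B2m and salvages IgG and albumin, had means of 57.7, 58.9, 67.5, 65.6 and 64.2 in the same order (0.19, SE 0.0499, adjusted p = 0.0223). The other 9 did not pass, and the list's median was 0.03, with 6 of 11 higher. At an unadjusted p under 0.05 were 5 of the 11, beside 24.5% of all genes.

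Of 11 genes of peptide supply and loading for class I, 1 fell with the diet over both genotypes, a share near the 8.33% called among all genes. This was Psme1, a subunit of the interferon-inducible PA28 cap of the proteasome, with means of 107, 106, 93.8, 90.8 and 99.5 in the same order (log2 change -0.20, SE 0.0565, limma adjusted p = 0.0300). The standard proteasome list (8 genes) had 1 member that fell, again near that share, Psma7, an alpha ring subunit (-0.13, adjusted p = 0.0427). Among 16 regulators of class I and class II genes, 14 of them tested, 1 fell, also near that share, Rfxank, a subunit of the RFX complex that binds class II promoters, with means of 11.2, 11.6, 9.30, 9.48 and 9.70 (-0.27, SE 0.0609, adjusted p = 0.0105). Ciita itself, named after its values were seen, had means of 0.395 to 0.546 and did not pass the filter on low values. Of 24 interferon response genes 23 were tested and 0 were called in any comparison (limma), with 3 at an unadjusted p under 0.05 for the diet over both genotypes (24.5% of all genes were) and a median log2 change of 0.06. For genotype over both diets 20 of the 23 were higher, with a median of 0.07, and 0 were at an unadjusted p under 0.05.

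Markers of cell types moved with the diet in a few cases. Coro1a, an actin regulator of leukocytes, rose over both genotypes from means of 4.11 and 4.02 to 5.56 and 5.33 (log2 change 0.37, SE 0.0991, limma adjusted p = 0.0249), the only call among 6 general leukocyte genes, where 8.33% of all genes were called. The fibroblast markers Pdgfra (0.29, adjusted p = 0.0471) and Lum (0.55, adjusted p = 0.0393) rose, 2 of 7 genes beside the same 8.33%, and all 7 were higher with a median of 0.36. Myh6, the cardiomyocyte myosin heavy chain, fell by 0.17 on the log2 scale (adjusted p = 0.0315), 1 of 8 genes, and Cd36, a fatty acid transporter listed among endothelial genes, rose in GPx4+/- by 0.28 (adjusted p = 0.0396), 1 of 8 genes where 3.34% of all genes were called. None of the macrophage (10 tested), monocyte (2), dendritic cell (3), B cell (2), smooth muscle (7), atrial (6), hepatocyte (6), adipocyte (1) or valve (4) markers was called in any comparison by limma, and the T and NK cell list had 0 genes to test. At an unadjusted p under 0.05 for the diet over both genotypes were 5 of 7 fibroblast, 5 of 8 ventricular cardiomyocyte, 4 of 7 smooth muscle, 3 of 8 endothelial, 2 of 6 leukocyte, 2 of 10 macrophage, 1 of 6 atrial and 1 of 2 B cell markers, beside 24.5% of all genes. The other marker lists had 0. The median log2 change of the ventricular cardiomyocyte markers was -0.12 (5 of 8 lower), of the smooth muscle markers 0.54 (5 of 7 higher), of the endothelial markers 0.09 (7 of 8 higher) and of the macrophage markers 0.12 (9 of 10 higher). The part of these cells in the members' levels was not tested.

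Transcripts of the same gene were compared by their share of its TPM. Cd74 makes a long form of the invariant chain, which carries an extra exon encoding a protease inhibitor domain. The long transcript (ENSMUST00000097563.8, coding length 837 bases) held 25.8% of Cd74 TPM on average (21.9% to 29.2% over the 25 mice) and the short one (ENSMUST00000050487.15, 645 bases) 73.5%. The share of the long form was 26.4% ± 1.37 in WT and 25.8% ± 2.74 in GPx4+/- mice on CNTL, 25.4% ± 1.13 and 25.8% ± 1.04 in the same genotypes on HFHS, and 25.8% ± 2.35 with carnosine. It stayed within a narrow band although Cd74 itself ranged from 48.7 to 99.6.

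For H2-Eb1 the largest share, 59.1% (44.4% to 72.2%), was assigned to a transcript annotated as a target of nonsense-mediated decay, and protein-coding transcripts held 12.1% (6.77% to 18.9%). H2-Aa and H2-Ab1, by contrast, came almost wholly from their main coding transcripts (98.1% and 96.5%). A retained-intron transcript of 457 bases held 27.4% of H2-K1. In Psmb8, a retained-intron transcript of 1234 bases held 38.4% and another of 1484 bases 3.53%. Protein-coding transcripts held 63.8% of H2-K1, 99.1% of H2-D1, 81.8% of Tap1, 56.5% of Psmb8 and 67.0% of Psmb9. Among 15 shares tested in 5 comparisons each, 4 of 75 two-sided exact permutation tests gave an unadjusted p under 0.05, and the smallest adjusted p was 0.595. Among the 4 was the main Tap1 transcript, at 60.4% ± 9.10 in WT CNTL and 77.6% ± 5.41 in WT HFHS (exact p = 0.0159, adjusted p = 0.595). In GPx4+/- mice the same share was 66.5% on CNTL and 67.2% on HFHS (exact p = 0.960, adjusted p = 0.981). The main Psmb9 transcript was 61.7% ± 4.39 in WT CNTL and 50.8% ± 5.75 in GPx4+/- CNTL (exact p = 0.0159, adjusted p = 0.595), and 65.0% ± 10.0 in GPx4+/- HFHS (against GPx4+/- CNTL, exact p = 0.0317, adjusted p = 0.595).

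Each immunoproteasome subunit was set against the standard subunit whose place it takes. Psmb8 made up 9.66% of Psmb8 and Psmb5 together (8.08% to 11.3% over the 25 mice), Psmb9 3.78% of Psmb9 and Psmb6 (2.81% to 4.66%) and Psmb10 24.5% of Psmb10 and Psmb7 (21.6% to 28.3%). By mRNA the standard subunits thus outnumbered their inducible counterparts in every mouse and every group. The Psmb9 share was 3.61% ± 0.402 in WT CNTL and 4.06% ± 0.445 in WT HFHS (exact p = 0.151, adjusted p = 0.808), and the Psmb8 share 9.18% ± 1.20 and 9.33% ± 0.601 (exact p = 0.825, adjusted p = 0.923).

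**Figure D5:**
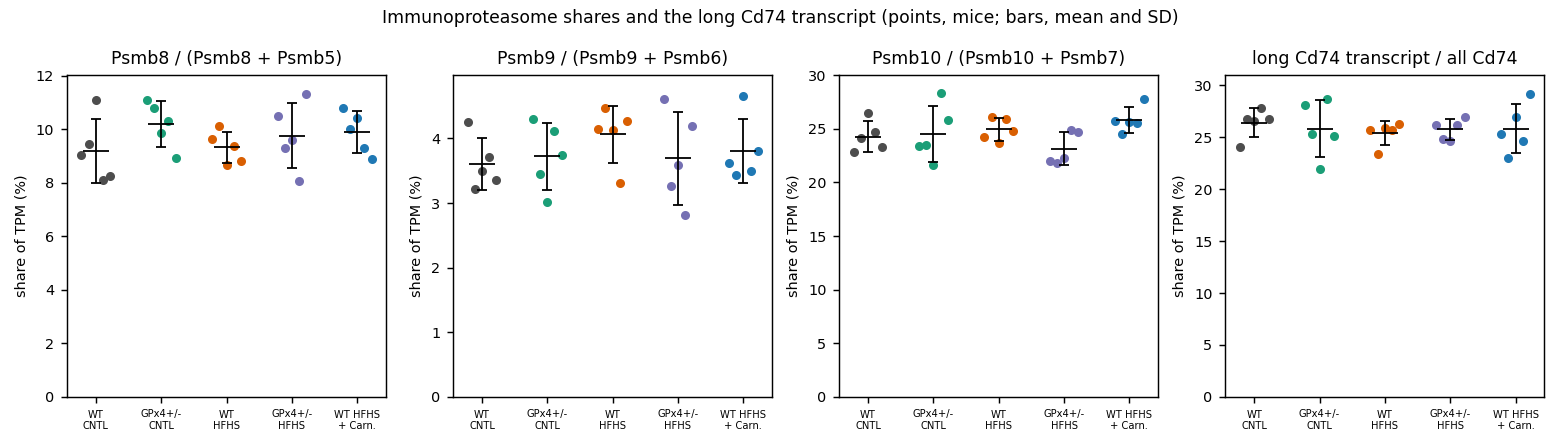
Share of TPM in percent (vertical axes from 0) of Psmb8, Psmb9 and Psmb10 in the sum with their standard counterparts and of the long Cd74 transcript in all Cd74, for each of 25 mice by group, with mean and SD of 5 mice. The immunoproteasome shares stay below 30% and the groups overlap in every panel.

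Members were also compared as shares of each other's scaled TPM within a mouse. H2-Aa was 59.6% of H2-Aa and H2-Ab1 together (56.1% to 63.0%), and Cd74 was 69.2% of Cd74 and H2-Aa together (66.7% to 71.7%), so that the invariant chain kept its excess over the alpha chain in low and high mice alike. Shares that cross the chains of class I or the classes had wider ranges: H2-K1 was 30.6% to 43.9% of H2-K1 and B2m together, and H2-Aa 16.0% to 27.9% of H2-Aa and H2-K1 together. Between the heavy chains, H2-K1 was 53.9% ± 1.37 of H2-K1 and H2-D1 in WT CNTL and 52.0% ± 0.658 in WT HFHS (exact permutation p = 0.0317, adjusted p = 0.595). In GPx4+/- it was 55.7% ± 2.32 on CNTL and 52.8% ± 1.97 on HFHS (exact p = 0.0556, adjusted p = 0.694). Neither passed the adjustment over the 75 tests.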

How the data were processed

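Heart mRNA of 25 mice, extracted from left ventricular tissue per the labels, was sequenced from stranded libraries. The authors deposited TPM per transcript for each library. The submitters' processing notes name kallisto 0.43.1, sleuth 0.30.0 and GRCm38, without their roles, whereas the study's text describes STAR and gene counts. Columns were matched to mice by the library name in the header, and stated column positions, which disagree, were not used. Groups came from the sample labels.

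Of 119215 transcripts, 116772 were matched to GENCODE release M21 (388 without the version) and summed into 35922 genes. Sums were scaled by median ratios over 11871 genes and tested as log2(scaled TPM + 0.5) with limma 3.58.1 in R 4.3.3 (mean-variance trend) on the 11974 genes with a mean of at least 1. The 20 mice without carnosine shared 1 fit of 4 groups, and the carnosine comparison used the 10 WT HFHS mice. TPM keeps no read depth, so a count test was not used and low values have no counting error. Single values were compared by two-sided exact permutation.

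The members and lists were chosen with earlier results of these data known. Named genes are the 10 members, called genes of the lists (up to 4 per list) and the 5 genes most like each class. Alternatives were the pseudocount, filter, scaling, samples in the fit, replicate block, sample weights and each mouse left out. Protein-coding sums, the mice left out for Myl7 or Alb and the tests of shares were added after the data were seen.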

Additional observations from a re-analysis of the deposited data

Results flagged for a closer look

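In 3 of the 50 sets of 5 mice (10 genes in 5 groups), 1 mouse stood apart from the other 4 by more than 0.71 of the whole range, the limit of Dixon's test for 5 values; about 2.50 are given by chance, at 1 in 20. H2-K1 in WT HFHS mouse 4 was 131 scaled TPM beside 110 to 114 in the others (gap 0.835 of the range). Psmb9 in the same mouse was 4.97 beside 6.78 to 7.33 (0.766), in the opposite direction. In WT HFHS + Carnosine mouse 3 Psmb9 was 6.96 beside 5.67 to 5.91 (0.819). WT HFHS mouse 4 also had the highest class II level of its group (1.22) and, of all 25 mice, the highest summed macrophage (321), leukocyte (32.9), fibroblast (648) and smooth muscle (1310) markers and the lowest ventricular cardiomyocyte markers (41900). The part of these in the values was not tested.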

How the results depend on the processing

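No member was called under any of the 12 other settings or with any of the 25 mice left out, 0 of 2412 fits in all (limma); the smallest adjusted p was 0.119, for H2-D1 with diet in WT without the 5 mice with Myl7 above 100 (log2 change 0.22). With a replicate block 0 members were called as well, while calls over all genes were 68 in place of 142 for diet in WT and 306 in place of 400 in GPx4+/-; same-numbered mice did not deviate together (correlations -0.338 to 0.232), so the numbers were not taken as pairs. Calls over all genes for diet in WT were 38 on TPM as deposited, 45 without a filter, 75 with only those 2 groups, 94 without the mice with Alb above 10 and 407 with array weights, and in GPx4+/- 237 without a filter, 124 with those 2 groups and 168 without the Alb mice. Of 661 alternative values of the 22 fold changes printed above gene by gene for the members with diet and carnosine, 639 kept their direction. For the called genes of the other lists, such as H2-T24 and Fcgrt, alternative values are not given. The direction turned for H2-K1 with diet over both genotypes without the Myl7 mice (0.02), for Tap1 with protein-coding transcripts only (0.06), and for Psmb8, near 0, on TPM as deposited (-0.05), without the Alb mice (-0.02) and with single mice left out (-0.02 to 0.03). In GPx4+/- the diet change turned without the Alb mice for H2-Aa (-0.15), H2-Ab1 (-0.12), H2-Eb1 (-0.003) and Cd74 (-0.18). On TPM as deposited it was -0.02 for H2-Ab1 and -0.02 for Cd74, where the median of all genes also moved to -0.10. With single mice left out it was -0.04 to 0.29 for H2-Ab1 and -0.05 to 0.24 for Cd74. Without depth in the file, how much of the spread in low genes such as Tap1 comes from counting could not be measured. The cause of the other changes was not tested.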

Other observations

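H2-Q10, a class I-like chain secreted mainly by liver and named here after its values were seen, did not follow the other class I chains. It was 18.7 scaled TPM in GPx4+/- CNTL mouse 2, 2.80 in GPx4+/- HFHS mouse 1 and 1.93 in GPx4+/- HFHS mouse 3, and 0.194 to 0.708 in the other 22 mice. The liver gene Alb was 736, 40.8 and 23.0 in those 3 mice and at most 5.25 in the others. The hepatocyte markers summed to 1090 in GPx4+/- CNTL mouse 2. In the same mouse the class II level was 0.669 and the class I level 0.979 of the mean of all mice.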
